A study of Mus musculus with 6 samples.

Results

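The 10 genes described here encode transcription factors and cofactors that start or restrain adipocyte fate in marrow stromal cells: Pparg, Cebpa, Cebpb, Cebpd, Zfp423, Ebf1, Klf15, Gata2, Ppargc1a and Rxra. They were taken by gene name from Agilent expression arrays, where they hold 16 of 56605 probes, among 27195 named genes. The NONMMUT002667-KO cultures (KO, 3 arrays) came from mice without a long non-coding RNA, and the WT cultures (3 arrays) from wildtype mice. Both were made from femur marrow stromal cells sorted for Sca-1 and CD29 and against CD45 and CD11b, and were used at the first passage. The labels give all 6 samples as male and untreated. Strain, age, the design of the allele and the animals behind each sample are not stated, so p-values measure only the spread between these samples, which may be technical. The description and extraction fields of the labels speak of human blood, and the titles and source names were followed instead.

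Adipocyte fate is set by a relay of transcription factors. C/EBP beta and C/EBP delta act first and switch on PPAR gamma and C/EBP alpha, which keep each other active and turn on the genes of fat storage. PPAR gamma binds DNA with RXR alpha as its partner and recruits coactivators such as PGC-1 alpha. ZFP423 and EBF1 act earlier, in committed precursors, whereas GATA2 holds precursors back. Marrow stromal cells can also become osteoblasts, and several of these factors also work in blood cells, such as PPAR gamma in macrophages, EBF1 in B cells and GATA2 in blood progenitors and mast cells.

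Of the 8 genes bright enough to test, each taken by its brightest probe, Pparg has the largest positive difference below, and 2 of its 3 RefSeq promoter windows are shown because the main array probe does not separate its isoforms: the array file assigns that probe to transcripts of both. RefSeq (GRCm38.p6) windows, from 250 bases before to 50 bases after a start, were held for 15 starts of 9 of the 10 genes. Capitals mark matches to the C/EBP motif TTGCNNAA on either strand, a motif chosen after these sequences had been seen. The downstream start is the one whose isoform is largely restricted to adipocytes.
Pparg upstream start, chr6:115360894-115361193, GRCm38.p6, plus strand: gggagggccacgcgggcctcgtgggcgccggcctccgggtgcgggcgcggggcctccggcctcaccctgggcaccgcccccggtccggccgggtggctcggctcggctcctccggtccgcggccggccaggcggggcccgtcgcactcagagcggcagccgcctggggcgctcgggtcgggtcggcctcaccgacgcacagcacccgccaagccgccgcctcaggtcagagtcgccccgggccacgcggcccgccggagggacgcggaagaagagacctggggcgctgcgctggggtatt
Pparg downstream start, chr6:115421816-115422115, GRCm38.p6, plus strand: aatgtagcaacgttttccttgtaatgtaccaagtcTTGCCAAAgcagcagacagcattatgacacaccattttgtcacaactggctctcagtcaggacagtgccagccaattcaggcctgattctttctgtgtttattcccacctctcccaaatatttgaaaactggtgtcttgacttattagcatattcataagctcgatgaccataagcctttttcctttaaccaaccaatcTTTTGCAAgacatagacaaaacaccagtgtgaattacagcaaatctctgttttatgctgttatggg
The upstream window held 0 matches and had a GC content of 80.3%. The downstream window held 2 matches, whose first bases lie at -215 and -16 from the start, and had a GC content of 40.3%. The middle window, chr6:115362099-115362398 on the plus strand, lies close to the upstream start and is not printed; it held 0 matches and had a GC content of 62.7%. The motif occurred in 10.8% of 32851 promoter windows. On both strands, 6 other motifs were searched. Of these, the GC box GGGCGG (in 35.7% of all windows) had 1 match in the upstream window and 2 in the middle one, and the TATA box TATAAA (in 13.6%) had 1 match in the middle one, at -29. The PPAR-RXR direct repeat (0.0396%), the EBF motif CCCNNGGGA (6.56%), the GATA motif AGATAA (11.2%) and the CRE motif TGACG (20.8%) had 0 matches in the 3 windows. A match is a run of letters and is no evidence of binding in these cells.

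All 6 arrays shared 1 slide and 1 scan. The KO arrays lay in one row of the slide and the WT arrays in the other, so slide row and genotype cannot be told apart. A probe is called detected where the scanner software marks it well above background, which held for 49.0 to 53.0% of spots on KO arrays and 54.3 to 56.7% on WT arrays. KO replicate 1 and WT replicate 3 carried Xist signal and lacked that of the Y-linked gene Eif2s3y, which goes against their label as male, and results are also given without these 2 arrays. No probe was matched by name to the targeted RNA, so its loss was not checked here. Levels are log2 processed signals relative to the 75th percentile of the array, and differences are KO minus WT on that scale. A level depends on the probe, so levels are compared between arrays and not between genes. The sort marker Ly6a, which encodes Sca-1, had a difference of -0.09. Ptprc, which encodes the CD45 that was sorted against, was detected on all 6 arrays.

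Of the 10 genes, 8 were detected and tested, through 11 of their 16 probes, and Gata2 and Ppargc1a were too dim. After Benjamini-Hochberg adjustment over all 28606 probes tested with limma, 0 of the 11 probes passed an adjusted p of 0.05, where 0.0594% of all probes and 0.0781% of all genes did. At an unadjusted limma p under 0.05, 1 of the 11 probes was higher in KO and 0 lower, where 15.5% of all probes were called (8.24% higher and 7.28% lower). With each gene represented by its brightest probe, 1 of 8 was higher and 0 lower, where 15% of genes were called (6.94% higher and 8.03% lower). Over all genes these calls were 1066 higher and 1234 lower, and with the arrays centred on their medians 699 higher and 1383 lower. The KO and WT values did not overlap for 2 higher probes and 1 lower probe, where 22.2% of all probes did not (12.6% higher and 9.57% lower). For genes this held for 1 higher and 1 lower of 8, where it held for 22.4% of all genes (12% higher and 10.4% lower). These shares are near the background. The 8 differences ran from -0.33 (Klf15) to 0.27 (Pparg) with a median of 0.08, beside a median of 0.02 over all 15371 genes tested.

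**Figure D1:**
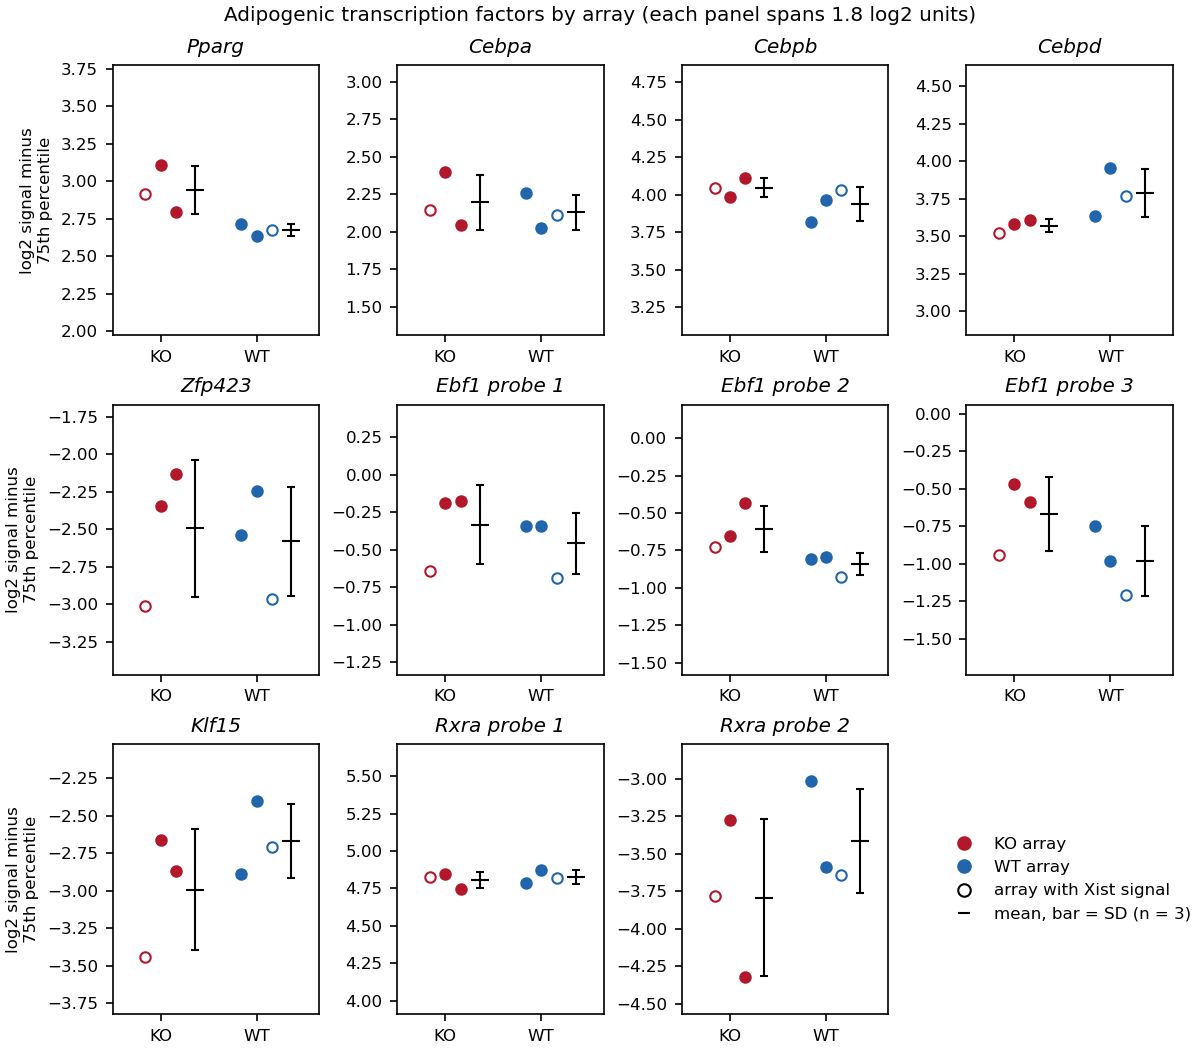
Log2 level relative to the array's 75th percentile (y axis) on the 3 KO and 3 WT arrays for the 11 tested probes, with mean and SD and with open points for the 2 arrays with Xist signal. The groups do not overlap for Pparg, Cebpd and the second Ebf1 probe, and they overlap in the other panels.

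PPAR gamma, the nuclear receptor that drives adipocyte formation, had the one difference that reached the unadjusted threshold. Pparg measured 2.92, 3.11 and 2.79 on the KO arrays, against 2.71, 2.64 and 2.67 on the WT arrays (probe on chromosome 6, 115440213 to 115440272, mm9). All KO values lay above all WT values, and the KO arrays spread more widely, with 2.94 ± 0.16 in KO and 2.67 ± 0.04 in WT (SD, n = 3 each). The log2 difference was 0.27, or 1.20-fold, with a 95% interval of 0.03 to 0.50. It did not pass over all probes (limma adjusted p = 0.273, and 0.174 to 0.542 over 17 other settings). The difference was positive in all 17 and reached the unadjusted threshold in 9. It did so without KO replicate 3 (0.34) and not without any other single array (0.18 to 0.29). Without the 2 arrays with Xist signal it was 0.28 and did not reach it. A second Pparg probe, designed on an alternatively spliced transcript, was detected on 0 arrays and was not tested.

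Macrophages also make Pparg, and macrophage transcripts were abundant in these cultures. Of 20 macrophage and monocyte markers, 19 were detected on all 6 arrays, among them Csf1r, the receptor macrophages need to survive, and Adgre1, which encodes F4/80. Their summed signal, with the 75th percentile of an array set to 1, was 1408, 1357 and 1324 on KO arrays, against 1294, 1236 and 1251 on WT arrays. The KO sums all lay above the WT sums, and 16 of the 20 differences were positive, with a median of 0.13, where 55.8% of all genes had a positive difference. At an unadjusted limma p under 0.05, 2 of the 20 markers were higher (Cd14 and Trem2) and 0 lower, where 6.94% of all genes were higher and 8.03% lower. This share is near the background. At the same threshold, 4 of the 5 tested probes of Ptprc were higher, where 8.24% of all probes were. These probes read 1 gene, and its brightest probe was not called (0.20, groups overlap). Itgam, which encodes the CD11b also sorted against, differed by 0.12 by its brighter probe and -0.25 by its dimmer probe. Neither Itgam probe reached that threshold. The part of these markers in the Pparg difference was not tested, and in RNA of whole cultures fewer cells of a type and less RNA per cell cannot be told apart. Of the 8 adipocyte markers, 4 were detected on all 6 arrays (Plin1, Retn, Lep and Lipe). Cidec, a lipid droplet gene, was detected on 0 arrays, and Adipoq, the adiponectin gene, on 1 KO array and 3 WT arrays. Of the 5 tested, 4 had a positive difference, and Plin1 (0.44) was the 1 higher at an unadjusted limma p under 0.05. The 8 summed to 0.866 to 1.12 on KO arrays and 0.893 to 0.951 on WT arrays, and the groups overlap.

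**Figure D2:**
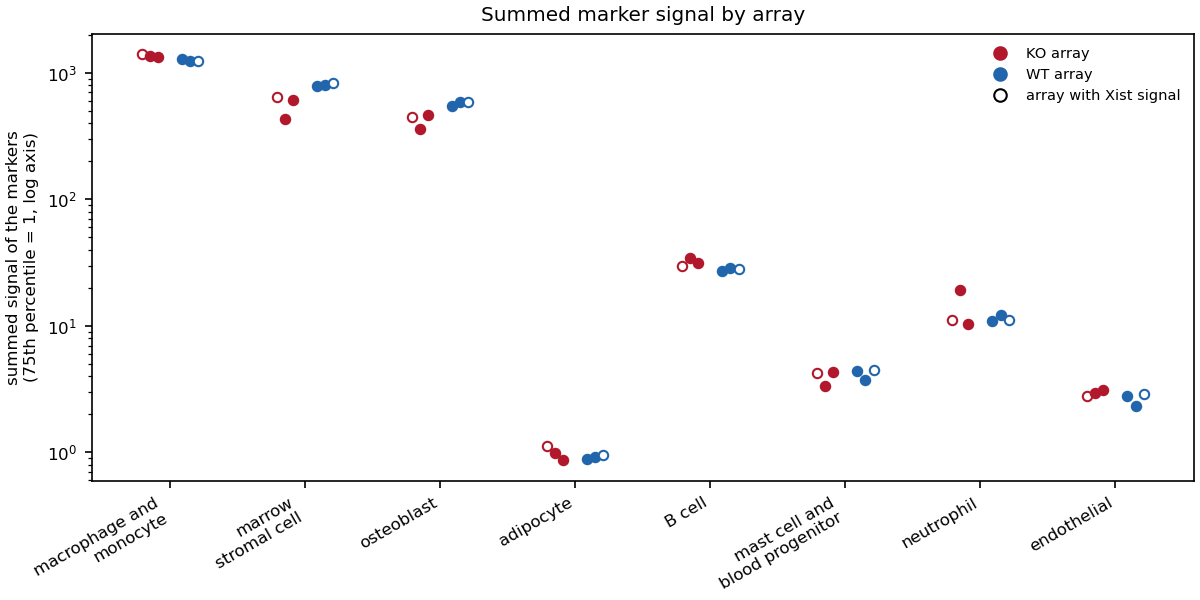
Summed signal of each cell type's markers (y axis, log scale, 75th percentile of the array set to 1) on the KO and WT arrays, with open points for the 2 arrays with Xist signal. Macrophage sums are higher on all KO arrays than on any WT array, the marrow stromal sum, mostly Col1a1 and Col1a2, and the osteoblast sum, mostly Spp1 and Col1a1, are lower on all KO arrays, and adipocyte sums are near 1 in both groups.

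The C/EBP factors, which act before and beside PPAR gamma, did not share a direction. Cebpd, an early factor that glucocorticoid induces, measured 3.52, 3.58 and 3.61 on the KO arrays, against 3.63, 3.96 and 3.77 on the WT arrays (probe on chromosome 16, 15888459 to 15888518, mm9). Every KO value lay below every WT value, though KO replicate 3 and WT replicate 1 were close. The log2 difference was -0.22 (95% interval -0.46 to 0.02; limma adjusted p = 0.363). Without WT replicate 2, the highest array, it was -0.13. Cebpb, which acts in the same first wave, measured 4.05, 3.99 and 4.11 on the KO arrays and 3.82, 3.96 and 4.03 on the WT arrays. These values overlap, with a log2 difference of 0.11 (95% interval -0.10 to 0.32; limma adjusted p = 0.604), and it was 0.05 without WT replicate 1.

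Cebpa, which sustains Pparg once adipocytes form, measured 2.14, 2.40 and 2.05 on the KO arrays and 2.26, 2.02 and 2.11 on the WT arrays. The groups overlap, with a log2 difference of 0.07 (95% interval -0.21 to 0.35; limma adjusted p = 0.842). KO replicate 2 was its highest array, as for Pparg, and without it the difference was -0.0353. Rxra, the gene of the DNA-binding partner of PPAR gamma, measured 4.83, 4.84 and 4.75 on the KO arrays and 4.79, 4.88 and 4.82 on the WT arrays by its brighter probe. The groups overlap, and the log2 difference of -0.02 had the narrowest interval of the 11 probes (-0.19 to 0.15). A dimmer Rxra probe, detected on 2 KO and 3 WT arrays, had a difference of -0.38 with a wide interval (-1.07 to 0.31). Dropping KO replicate 3 moved this difference to -0.11, and dropping WT replicate 1 moved it to -0.18. With KO replicate 2 dropped it was -0.64 and reached an unadjusted limma p under 0.05. The KO mean there includes KO replicate 3, whose reading of -4.32 lay below that array's lowest detected level of -3.60. The dimmer probe passed the filter through the WT arrays alone, so this call carries no weight.

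**Figure D3:**
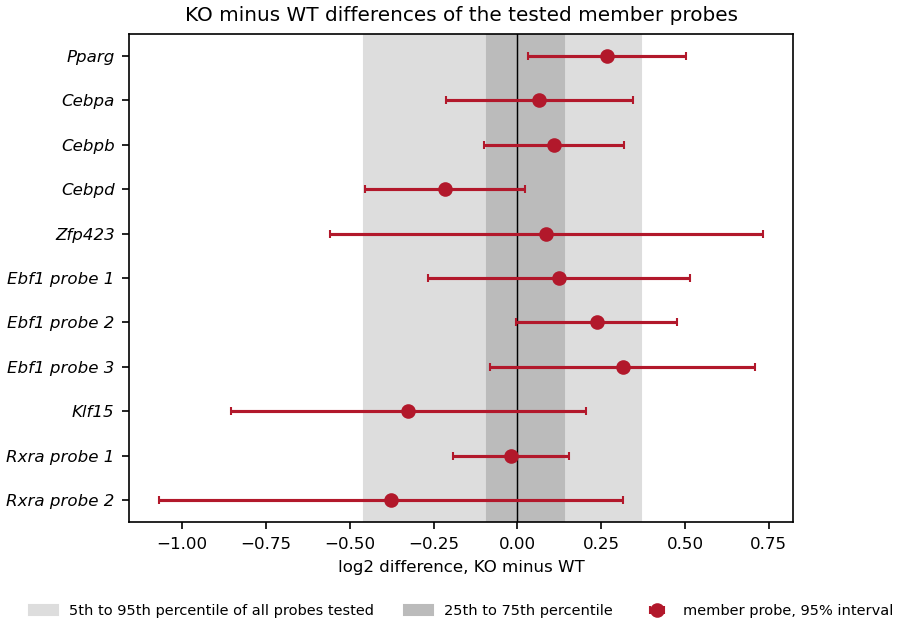
Log2 differences of KO minus WT (x axis) with 95% intervals from limma for the 11 tested probes, over bands for the middle of all probes tested. The interval of Pparg lies above 0 and the other 10 include 0.

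The factors of committed precursors, Zfp423 and Ebf1, varied within each group. Zfp423, a zinc-finger factor that marks preadipocytes, measured -3.01, -2.34 and -2.13 on the KO arrays and -2.54, -2.24 and -2.96 on the WT arrays. The groups overlap, the log2 difference was 0.09 (95% interval -0.56 to 0.73; limma adjusted p = 0.915), and its sign turned without WT replicate 3 (-0.104) or KO replicate 3 (-0.0955). A second Zfp423 probe was detected on 0 KO arrays and 2 WT arrays and was not tested. Ebf1, which acts upstream of Pparg and Cebpa, had 3 probes, each detected on all 6 arrays. The brightest measured -0.64, -0.19 and -0.17 on the KO arrays and -0.34, -0.34 and -0.69 on the WT arrays, which overlap (difference 0.12; limma adjusted p = 0.777). By the second probe the KO values of -0.73, -0.66 and -0.43 all lay above the WT values of -0.80, -0.79 and -0.93 (difference 0.24, 95% interval -0.0046 to 0.48; limma adjusted p = 0.330). The third probe was designed on an Ensembl transcript, the others on a RefSeq transcript. Its sequence lies before the RefSeq starts held for Ebf1, so it may not read the same transcripts. The third probe measured -0.94, -0.47 and -0.59 on the KO arrays and -0.74, -0.98 and -1.21 on the WT arrays, which overlap (difference 0.31, limma adjusted p = 0.428). Single arrays moved these differences. By the brightest probe the difference was 0.0065 when WT replicate 3 was left out, and 0.28, 0.05 and 0.04 when KO replicate 1, 2 or 3 was. With KO replicate 1 left out, the second probe and the dimmest differed by 0.30 and 0.45, and both reached an unadjusted limma p under 0.05, as they did with a term for Xist signal. The second probe differed by 0.15 without KO replicate 3. The third differed by 0.20 without WT replicate 3, and by 0.43 without WT replicate 1, where it also reached that threshold. Ebf1 also acts in B cells, and of 5 tested B cell markers 0 were higher and 0 lower in KO at an unadjusted limma p under 0.05, with 3 positive differences, while Cd79a, Igll1 and Rag1 were detected on 0 arrays. The markers summed to 29.8 to 34.3 on KO arrays and 27.1 to 28.7 on WT arrays. Blnk, which macrophages also express, held 92.2 to 94.3% of the sum on KO arrays and 92.1 to 93.9% on WT arrays. The differences were 0.76 for Pax5, 0.20 for Cd22, 0.18 for Blnk, -0.12 for Vpreb1 and -0.22 for Cd79b. For Pax5 and Blnk every KO value lay above every WT value, and the other groups overlap. The part of these markers in the Ebf1 values was not tested.

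For Zfp423 and for the brightest Ebf1 probe, the lowest array of each group was the one with Xist signal. Ebf3, a relative of Ebf1, measured -1.52, -0.58 and -0.40 on the KO arrays and -0.93, -0.66 and -1.57 on the WT arrays, with the same 2 arrays lowest. Over the 8 tested probes of EBF genes, Zfp423 and its relative Zfp521, 7 had their lowest value of each group on those arrays, Ebf4 being the exception, where 11.3% of all probes did. The 7 include every Ebf1 probe, and these read 1 gene. They also include Ebf2, which was detected on 1 KO array. Its reading of -4.65 on KO replicate 1 lay below that array's lowest detected level of -4.15. This set was put together after its values had been seen and carries no test. Without the 2 arrays, the log2 differences were 0.15 for Zfp423 and 0.16, 0.25 and 0.34 for the Ebf1 probes (limma adjusted p from 0.427 to 0.757).

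**Figure D4:**
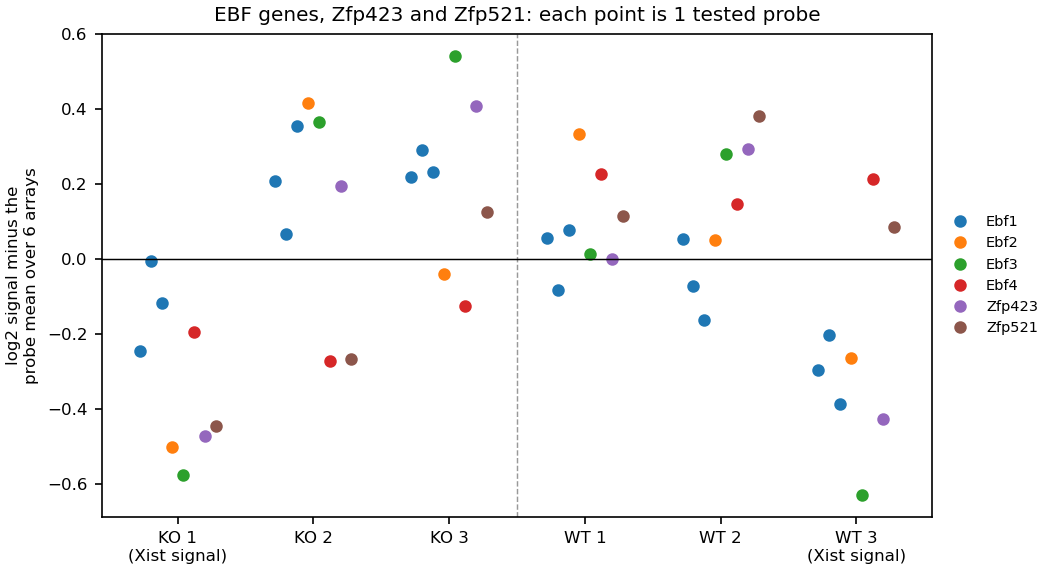
Log2 level of each tested probe of the EBF genes, Zfp423 and Zfp521 minus that probe's mean over 6 arrays (y axis), by array, KO left of WT. In 7 of the 8 probes the lowest array of each group is the one with Xist signal, and Ebf4 is lower on every KO array than on any WT array.

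Klf15, a Kruppel-like factor that supports Pparg expression, had the most negative difference among the brightest probes. It measured -3.44, -2.66 and -2.87 on the KO arrays and -2.89, -2.40 and -2.71 on the WT arrays. The groups overlap, and the log2 difference of -0.33 had a 95% interval of -0.86 to 0.21 (limma adjusted p = 0.544). KO replicate 1 was the lowest array, and without it the difference was -0.10. It was -0.19 without WT replicate 2, -0.49 without KO replicate 2 and -0.12 without the 2 arrays with Xist signal.

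Gata2 and Ppargc1a could not be tested in the main fit. Gata2, which keeps precursors from becoming adipocytes, was detected on 2 arrays of each group, with levels of -3.80, -3.77 and -4.14 on the KO arrays and -4.58, -4.17 and -4.10 on the WT arrays, which overlap. Among mast cell and progenitor markers, which share Gata2, Cpa3, Ms4a2, Hdc and Gata1 were detected on 0 arrays. At an unadjusted limma p under 0.05, 3 of 6 tested were lower in KO and 0 higher, where 8.03% of all genes were lower and 6.94% higher. Of these 3, Kit was detected on 2 KO arrays and passed the filter through the WT arrays alone. The 12 markers summed to 3.37 to 4.34 on KO arrays and 3.76 to 4.44 on WT arrays. Cd34, with a difference of -0.05, held 53.0 to 71.8% of the sum on KO arrays and 59.2 to 65.8% on WT arrays. Ppargc1a, which encodes PGC-1 alpha, had 2 probes, and both were detected on 0 arrays. Their readings were -6.35 to -5.20 on KO arrays and -6.79 to -6.47 on WT arrays. The lowest detected level of an array was -4.15 to -3.60 on KO arrays and -4.62 to -4.41 on WT arrays, so these readings give no direction.

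Profiles were compared by the root mean square difference of log2 levels over the 6 arrays, with each gene centred on its own mean. Outside the 10 genes, the closest to Pparg were Gpr6 (0.0350), Alpk1 (0.0362) and Bcl2a1d (0.0365). The closest to Klf15 were Fap (0.0823), Lysmd3 (0.0829) and Hey1 (0.108).

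Around the 10 genes, 5 lists of related genes held 102 tested genes, of which 0 passed after adjustment over all probes. At an unadjusted limma p under 0.05, 7 (6.86%) were higher in KO and 16 (15.7%) lower, where 6.94% of all genes were higher and 8.03% lower. The higher share is at the background. Among relatives of the 10 genes by family, 4 of 18 were lower at that threshold and 0 higher, with a median difference of -0.11. That is 22.2% lower and 0% higher, beside the same 8.03% and 6.94% of all genes. Klf4, an early activator of Cebpb, measured 3.12, 2.85 and 3.21 on the KO arrays, against 3.81, 4.08 and 3.69 on the WT arrays (log2 difference -0.80; limma adjusted p = 0.0833). Ddit3, which encodes the C/EBP inhibitor CHOP, measured 1.14, 0.67 and 0.93 on the KO arrays, against 1.52, 1.61 and 1.62 on the WT arrays (log2 difference -0.67; limma adjusted p = 0.0926). Ebf4 differed by -0.39 (limma adjusted p = 0.0946), and in these 3 genes the groups did not overlap. Of the 18 relatives, 5 lay lower and 1 higher without overlap, where 10.4% of all genes lay lower and 12% higher. The other lower gene was Rxrg, a relative of Rxra named after its values were seen. It was detected on 1 KO array and 3 WT arrays, so it passed the filter through the WT arrays alone. Klf6 had the smallest p of those with a positive difference (0.23; limma adjusted p = 0.322).

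Of 20 tested genes that restrain adipogenesis, 8 were lower in KO at an unadjusted limma p under 0.05 and 0 higher, where 6.94% of all genes were higher and 8.03% lower. In those 8 the groups did not overlap, where 10.4% of all genes lay lower without overlap. The list's median difference was -0.21. It was -0.06 over 24 genes without the filter on dim probes, where the median over all genes was 0.09, against 0.02 with the filter. That setting added Dlk1, Meox1 and Tcf21, detected on 0 arrays, and Zfpm2, detected on 2 arrays of each group. The list's median was -0.11 without the 2 arrays with Xist signal, where 6 genes were lower. Without WT replicate 3, 5 were. Tcf7, a transcription factor of the Wnt pathway, measured -1.82, -2.01 and -1.73 on the KO arrays, against -1.04, -0.84 and -1.15 on the WT arrays (log2 difference -0.84; limma adjusted p = 0.0639). Trib3, a pseudokinase of stress and insulin signalling, differed by -0.86 (limma adjusted p = 0.0917). Wnt10b, a Wnt ligand that blocks Pparg and Cebpa, differed by -0.57 (limma adjusted p = 0.143). The other 5, named after their values were seen, were Foxo1, Il11, Wwtr1, Twist1 and Zfpm1. Wnt10b and Wwtr1 also act in osteoblasts, and 9 of 10 osteoblast markers were lower in KO at the same threshold and 1 higher (Spp1), with a median difference of -1.49. Of 16 marrow stromal markers, 3 were higher (Grem1, Kitl and Cxcl12) and 3 lower (Nt5e, Col1a1 and Col1a2), with a median of -0.09. Their sum was 648, 430 and 611 on KO arrays, against 783, 806 and 838 on WT arrays, and the bone matrix genes Col1a1 and Col1a2 held 78.2 to 84.5% of it on KO arrays and 86.6 to 88.5% on WT arrays. The part of these marker differences in the list was not tested. Sox9, Snai2 and Ccn5 had differences of 0.09, 0.10 and 0.10, with overlapping groups.

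**Figure D5:**
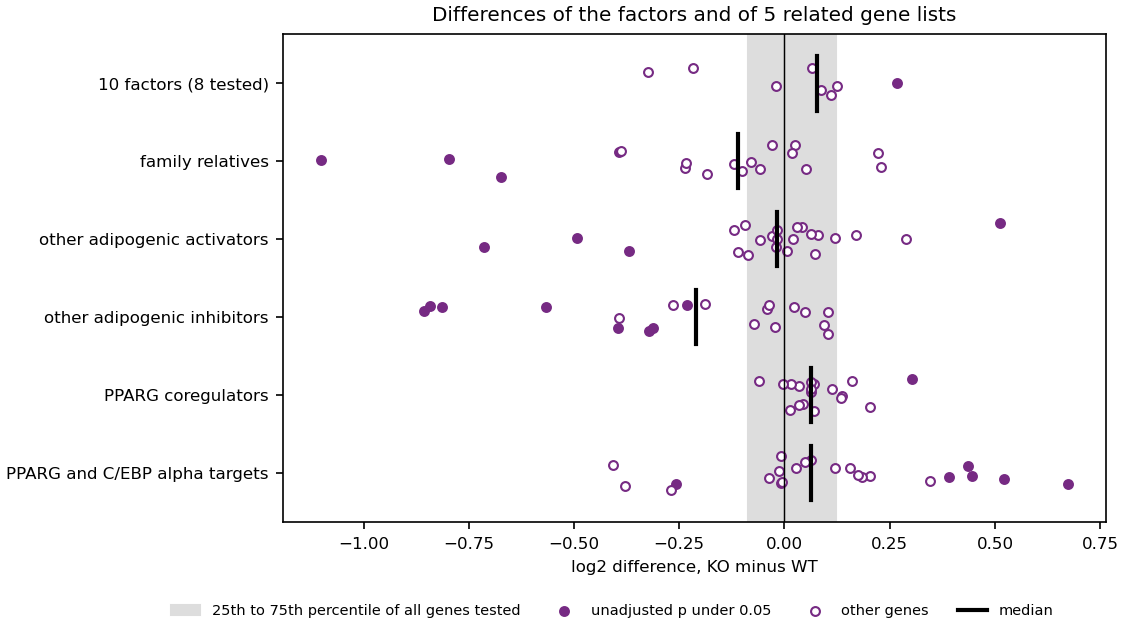
Log2 differences of KO minus WT (x axis) for the 8 tested genes and for the tested genes of 5 related lists, filled where the unadjusted limma p was under 0.05, with black bars for medians and a band for the middle of all genes. The 8 filled inhibitor genes are all below 0, and 5 of the 6 filled target genes are above it.

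Other activators of adipogenesis had a median difference of -0.02 over 23 tested genes, with 1 higher and 3 lower at an unadjusted limma p under 0.05 (4.35% and 13%), where 6.94% of all genes were higher and 8.03% lower. The median changed sign without KO replicate 1 (0.07), without WT replicate 2 (0.05), with both Xist-positive arrays left out (0.03) and where each gene was given its probes' mean (0.0054). The lower genes were Irs1, an adaptor of the insulin receptor (-0.49; limma adjusted p = 0.108), Bmp4, a ligand that commits precursors (-0.71; limma adjusted p = 0.188), and Nfib (-0.37; limma adjusted p = 0.240). The higher gene was Egr2, also called Krox20 (0.51; limma adjusted p = 0.292), whose groups overlap. The coregulators of PPAR gamma ran from -0.06 to 0.30 over 18 genes, with a median of 0.06 beside 0.02 over all genes. Of the 18 differences, 16 were positive, where 55.8% of all genes had a positive difference. Kmt2d, a histone methyltransferase, was the 1 gene at the unadjusted threshold (5.56% of the list; 0.30; limma adjusted p = 0.268), followed by the acetyltransferase gene Crebbp (0.20; limma adjusted p = 0.346).

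Genes that PPAR gamma and C/EBP alpha turn on in adipocytes did not share a direction. Of 32, 23 were tested. At an unadjusted limma p under 0.05, 5 (21.7%) were higher and 1 (4.35%) lower in KO, where 6.94% of all genes were higher and 8.03% lower. The median difference was 0.06, but 0.18 when WT replicate 3 was left out, 0.12 when KO replicate 3 was, 0.04 when KO replicate 1 was and 0.0064 when WT replicate 1 was. Cd36, a fatty acid receptor, measured 4.14, 4.39 and 4.25 on the KO arrays, against 3.49, 3.44 and 3.83 on the WT arrays. Fabp4, a fatty acid binding protein, measured 4.59, 4.62 and 4.54 on the KO arrays, against 4.18, 4.27 and 4.13 on the WT arrays. The groups lay apart in both, with log2 differences of 0.67 and 0.39 (limma adjusted p = 0.0926 and 0.0945). Over the 23 genes, 5 lay higher and 1 lower without overlap, where 12% of all genes lay higher and 10.4% lower. Lpl, lipoprotein lipase, differed by 0.52 (limma adjusted p = 0.141). The lipid droplet gene Plin1, named after its values were seen, was also among the higher genes (0.44). Dgat2, which makes triglyceride, was the lower gene (-0.26; limma adjusted p = 0.206), followed by Scd1 (-0.27) and Angptl4 (-0.38), whose groups overlap. Macrophages also express Cd36, Fabp4 and Lpl, and the part of the macrophage markers in these differences was not tested.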

How the data were processed

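RNA of 3 KO and 3 WT cultures was hybridised in 1 colour to 1 Agilent array each. The intensity values used are background-corrected processed signals, per the file headers, which name Feature Extraction 10.7.1.1 (9.1 in the submitters' processing notes); probe coordinates are of mm9. The authors' deposited table holds log2 values whose sorted columns differ by at most 0.0028, with a median of 6.15 in each, and the steps behind it are not stated. It was used as an alternative.

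Log2 signals were set relative to the 75th percentile over non-control spots, 49 to 131 outlier spots per array were left out, and spots of 1 probe were averaged. Tested probes had at least 2 values per group and were detected on all arrays of KO or of WT. The test was limma 3.58.1 in R 4.3.3 (lmFit, eBayes, two-sided, group only) with Benjamini-Hochberg adjustment, tested on simulated data. Genes were named by a RefSeq table (GRCm38.p6) through accession, symbol or synonym, and 10293 probes without a name enter no gene count. The 10 genes and all lists were chosen with earlier results of these data known. Named genes are the 10, up to 3 tested genes per direction of each list by smallest p, the closest profiles, and markers that a level turns on. Some marker and list genes are not reported here by name. The number of arrays limits the precision.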

Additional observations from a re-analysis of the deposited data

How the results depend on the processing

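Over 17 alternatives (normalization, filter on dim probes, variance model, replicate block, Xist term, arrays left out and the mean of a gene's probes), 0 member probes passed an adjusted limma p of 0.05. The median difference over the member genes was 0.05 to 0.12 in the settings that kept 3 arrays in each group or left out both arrays with Xist signal, and -0.01 to 0.11 when 1 array was left out. The count of member genes higher in KO at an unadjusted limma p under 0.05, which was 1 (Pparg), was 0 with median centring, 0 without the 2 arrays with Xist signal, and 0 to 2 when 1 array was left out (2 without KO replicate 3 and 0 without any other). Without KO replicate 3, 9 member genes were tested, and the second higher gene was Gata2. Gata2 passed the filter there only because its undetected KO array was the one left out, so its call carries no weight. In that setting 5.19% of all genes were higher. Without a filter on dim probes this count of higher member genes was 1, but Pparg was not the gene. It was Gata2 or Ppargc1a, which were too dim for the main test. In that setting 24.3% of all genes were higher and 4.44% lower, so the count is no result about the members. The count lower in KO, which was 0, was 1 with normexp and quantile normalization, 1 with a variance trend and 1 with a trend and robust prior (Cebpd in each), and 0 to 1 when 1 array was left out (1 without WT replicate 1). Same-numbered KO and WT arrays share a slide column, and their deviations from the group means correlated at 0.06, 0.15 and -0.03, so the numbers were not taken as pairs. The replicate block gave 1 lower member gene (Klf15), and 0 probes past the adjusted threshold over the whole array, against 17 without it, with 4647 and 4438 at an unadjusted limma p under 0.05. For 3 genes the difference changed sign when 1 array was left out, and the cause was not tested: Cebpa ranged from -0.0353 (without KO replicate 2) to 0.141, Zfp423 from -0.104 (without WT replicate 3; -0.0955 without KO replicate 3) to 0.345, and Rxra from -0.0404 to 0.00997 (without KO replicate 3; 0.00482 without WT replicate 2). Of the list genes, a variance trend took 1 family relative, 2 inhibitors and 2 target genes past the adjusted threshold, a trend with robust prior took 1, 1 and 1, and normexp with quantile normalization took 1, 1 and 0; the other settings took 0. At an unadjusted limma p under 0.05, leaving out 1 array gave 0 to 1 higher and 4 to 5 lower family relatives, 0 to 1 and 2 to 3 activators, 0 to 1 and 5 to 9 inhibitors, 0 to 2 and 0 coregulators, and 4 to 6 and 1 to 2 targets. In these settings 4.77 to 6.63% of all genes were higher and 6.63 to 8.11% lower. In the other alternatives these shares were 4.55 to 8.39% and 6.50 to 9.23%, apart from 24.3% and 4.44% without the filter. Changes of 1 gene in a list are within such shifts. Higher family relatives (0) became 1 with normexp, the stricter filter, both trends, the block and the mean of probes. Higher activators (1) became 0, and higher inhibitors (0) became 1, without the filter; higher activators were also 0 with the block and without the arrays with Xist signal. Higher coregulators (1) became 2 with normexp and both trends, and 0 without the filter and without the arrays with Xist signal. Lower targets (1) became 2 with the stricter filter, both trends, the Xist term, the mean of probes and without the arrays with Xist signal. List medians with 1 array left out were -0.15 to -0.085 for family relatives, -0.0594 to 0.0739 for activators and -0.206 to -0.165 for inhibitors. They were 0.0173 to 0.118 for coregulators and 0.00645 to 0.178 for targets. The median of inhibitors was -0.0567 without the filter, where the median over all genes was 0.0915. Over all genes, the number past the adjusted threshold was 12, and 0 to 153 over the alternatives. A block for slide or scan could not be run, since all arrays share both. Signal over background limits Gata2, Ppargc1a and the dim probes of Pparg and Zfp423.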
